A study of Rattus norvegicus with 15 samples.

Results

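The tRNA-derived fragments (tRFs) of asparagine and tyrosine tRNAs were followed across 15 small RNA libraries from rat left ventricle. Members were every entry of the deposited expression table whose name begins with tRF-Asn- or tRF-Tyr-, which gave 33 of 714 tRNA-derived small RNAs (tsRNAs). Of these, 21 came from asparagine tRNA with the anticodon GTT and 12 from tyrosine tRNA with the anticodon GTA, which were the only anticodons the names gave for these parents. The rule used names only and no measured value, though earlier results of these data were known when it was chosen.

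All animals were Sprague-Dawley rats, and the tissue was left heart ventricle in every library. In the first group, 5 rats had caloric restriction as a pretreatment and then received isoproterenol, a beta-adrenergic agonist that injures the heart muscle and is used to model myocardial ischemia (restricted ventricles). In the second, 5 rats received isoproterenol without restriction (isoproterenol ventricles), and in the third, 5 rats were untreated (control ventricles). No group was restricted without the drug, so restriction could be compared only in hearts given isoproterenol. Dose, length of restriction, age and sex are left unstated by the labels. The table lists tRNA fragments only, so the tissue could not be checked against marker RNAs, and in ventricle tissue fewer cells of a type and less RNA per cell cannot be told apart.

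A tRNA is read at the ribosome through its anticodon. The tRNAs for asparagine, tyrosine, histidine and aspartate share a modified base at the wobble position of the anticodon, queuosine, which mammals make from queuine supplied by diet and gut microbes. In mammals the queuosine of tyrosine tRNA carries an added galactose and that of aspartate tRNA an added mannose, and the genes of tyrosine tRNA hold an intron that is removed by splicing. Cells also cut tRNAs into shorter RNAs. Products of a cut in the anticodon loop are called tiRNAs, and the other fragments, from either end or from within the tRNA, are called tRFs. Mitochondria have their own asparagine and tyrosine tRNAs with the same anticodons, so a name does not separate nuclear from mitochondrial parents. Base modifications can stop reverse transcription, and the RNA was pretreated with a kit that removes some of them before RNAs of 14 to 40 nt were selected on a gel. The sequences and the positions of the fragments within the tRNA were not used here, and near-identical fragments of one tRNA are uncertain as single species.

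Values are CPM, the reads of a fragment scaled to 1000000 reads in all. Totals lay between 163818 and 397574 reads in restricted ventricles, between 106082 and 514565 in isoproterenol ventricles and between 269508 and 1128887 in control ventricles, and a single read stood for 0.886 to 9.43 CPM. Reads on the listed tsRNAs were 37% to 67.3% of the library in restricted, 49.4% to 78.7% in isoproterenol and 24.2% to 35.7% in control ventricles. A tsRNA that kept its share of the listed reads would therefore have a higher CPM in both drug groups than in control. For this reason the counts and medians are also given after median-of-ratios scaling, which sets the typical tsRNA of every library to the same level. The typical level was taken only from tsRNAs with a read in all 15 libraries. Across all 707 tsRNAs tested, the median log2 fold change was 1.26 for isoproterenol against control on CPM and 0.15 after that scaling. For restricted against control it was 1.60 and 0.24.

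The asparagine pool had a different leading fragment in the drug groups than in control, while its summed level overlapped between groups. The summed CPM of the 21 fragments was 2088, 1109, 2914, 1411 and 1745 in restricted ventricles 1 to 5. The sum was 1823, 3071, 3884, 1546 and 1644 CPM in isoproterenol ventricles and 1556, 2039, 1718, 2006 and 1842 CPM in control ventricles. The 3 groups overlapped. The log2 ratio of mean sums was 0.02 for restricted against control, and -0.21 to 0.15 with 1 library left out. After median-of-ratios scaling it was -1.99, and -1.28 without control ventricle 4, whose scaled sum of 11532 stood above 1940 to 4114 in the other controls. For isoproterenol against control it was 0.39 on CPM, and after that scaling -1.29, or -0.58 without control ventricle 4. The sign of the summed difference thus depended on the scale. Sums over members are described with no test.

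In control ventricles one fragment, tRF-Asn-GTT-043, held most of the asparagine pool, and in both drug groups another, tRF-Asn-GTT-021, did. The share of asparagine tRF reads held by tRF-Asn-GTT-021 was 46.7% to 74.5% in restricted, 40.3% to 80.8% in isoproterenol and 0.398% to 5.83% in control ventricles. The share held by tRF-Asn-GTT-043 was 3.86% to 30.6% in restricted, 1.94% to 20.7% in isoproterenol and 65.9% to 75.3% in control ventricles. Neither share overlapped between control and either drug group. A share within the pool does not depend on the library total or on the scaling.

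tRF-Asn-GTT-021 had 1142, 518, 2171, 789 and 940 CPM in restricted ventricles 1 to 5. It had 1448, 2149, 3139, 1169 and 663 CPM in isoproterenol ventricles and 33.0, 21.2, 100.2, 7.97 and 76.0 CPM in control ventricles. Every restricted and every isoproterenol library was above every control library, and the 2 drug groups overlapped. The means were 1112 ± 634 CPM in restricted, 1713 ± 961 CPM in isoproterenol and 47.7 ± 38.9 CPM in control ventricles (SD, n = 5 each). tRF-Asn-GTT-021 rose in isoproterenol ventricles by a log2 fold change of 5.42 against control (SE 0.59, limma, Benjamini-Hochberg adjusted p = 7.41e-10). In restricted ventricles it rose by 4.82 against control (SE 0.59, limma, adjusted p = 8.68e-09). After median-of-ratios scaling these were 4.21 and 3.24.

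tRF-Asn-GTT-043 went the other way. It had 189, 340, 113, 268 and 360 CPM in restricted ventricles 1 to 5. It had 52.0, 281, 75.4, 42.6 and 340 CPM in isoproterenol ventricles and 1076, 1523, 1132, 1509 and 1242 CPM in control ventricles. The 5 control libraries stood far above the rest, and no library of the drug groups reached them. The means were 253.8 ± 103.5 CPM in restricted, 158.3 ± 141.2 CPM in isoproterenol and 1296 ± 209.3 CPM in control ventricles (SD, n = 5 each). tRF-Asn-GTT-043 fell by 3.53 on the log2 scale in isoproterenol ventricles against control (SE 0.57, limma, adjusted p = 2.65e-06). In restricted ventricles it fell by 2.45 against control (SE 0.57, limma, adjusted p = 0.000478). The ratio of tRF-Asn-GTT-021 to tRF-Asn-GTT-043, a pair chosen after its values were seen, had a log2 value of 0.61 to 4.27 in restricted, 0.96 to 5.38 in isoproterenol and -7.57 to -3.50 in control ventricles. tRF-Asn-GTT-021 was the more abundant of the pair in all 10 drug libraries, and tRF-Asn-GTT-043 in all 5 control libraries.

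tRF-Asn-GTT-022 was read in every drug library and in no control library. It had 79.4, 12.6, 85.6, 18.1 and 49.5 CPM in restricted ventricles and 48.3, 101.6, 179.1, 106.5 and 56.4 CPM in isoproterenol ventricles. These came from 53 and 109 reads, against 0 of 2477355 reads in control ventricles, where a count of 0 allows up to 1.21 CPM over the group (3 reads). Pooled, it was at least 34.1-fold higher in restricted and at least 66.8-fold higher in isoproterenol ventricles than in control (limma, adjusted p = 1.38e-07 and 9.08e-10). Reads were amplified and are not independent molecules, so floors and intervals made from reads cover counting error only.

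The next most abundant asparagine fragments were lower in the drug groups by amounts that did not pass the test on CPM. tRF-Asn-GTT-046 had 195, 67.9, 149, 61.5 and 121 CPM in restricted ventricles. It had 81.7, 164, 94.3, 60.9 and 171 CPM in isoproterenol ventricles and 194, 207, 238, 258 and 262 CPM in control ventricles. Every isoproterenol library was below every control library, and restricted ventricle 1 lay just inside the control range. The log2 fold change was -1.12 for isoproterenol against control (SE 0.55, limma, adjusted p = 0.0852) and -1.08 for restricted against control (SE 0.55, limma, adjusted p = 0.0851). After median-of-ratios scaling these were -2.35 and -2.70, and both passed (limma, adjusted p = 0.000594 and 0.000163). tRF-Asn-GTT-047 had a mean of 41.0 ± 20.8 CPM in restricted, 49.0 ± 29.7 CPM in isoproterenol and 94.5 ± 18.9 CPM in control ventricles (SD, n = 5 each). Its log2 fold change was -1.12 for isoproterenol and -1.32 for restricted ventricles against control (limma, adjusted p = 0.121 and 0.0587), and it passed in both after median-of-ratios scaling.

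The other 16 asparagine fragments were scarce, with mean levels of 2.89 to 34.6 CPM and 10 to 133 reads over all libraries. Against control, tRF-Asn-GTT-044 fell by 2.39 on the log2 scale in isoproterenol ventricles (limma, adjusted p = 0.0199), where it had 0, 15.6, 0, 3.04 and 40.8 CPM against 14.6, 25.9, 37.1, 22.1 and 28.8 CPM in control ventricles. The groups overlapped through isoproterenol ventricles 2 and 5. tRF-Asn-GTT-045 fell by 2.03 in isoproterenol ventricles (limma, adjusted p = 0.0405), with a mean of 9.11 ± 8.24 CPM against 27.2 ± 11.8 CPM in control ventricles (SD, n = 5 each). The first call was lost without isoproterenol ventricle 1 or 3 (-1.82 each, limma, adjusted p = 0.0803 and 0.0812). The second was lost without isoproterenol ventricle 3 or 4 or control ventricle 2, 4 or 5, with values of -1.36 to -2.03 (limma, adjusted p = 0.0602 to 0.172). tRF-Asn-GTT-020 fell by 1.87 in restricted ventricles against control (limma, adjusted p = 0.0488), with 0 to 9.01 CPM against 10.6 to 25.6 CPM. That call was lost without any 1 of the 5 control libraries, isoproterenol ventricle 1 or restricted ventricle 1 or 2. Without restricted ventricle 1 the log2 fold change was -1.29 (limma, adjusted p = 0.18).

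Among the scarce fragments that rose, tRF-Asn-GTT-008 had 30.5, 10.1, 13.5, 39.8 and 13.5 CPM in restricted, 11.1, 23.4, 28.3, 9.13 and 9.72 CPM in isoproterenol and 3.66, 4.71, 3.71, 0.886 and 2.62 CPM in control ventricles. Both drug groups lay wholly above control. Its log2 fold change against control was 2.02 in isoproterenol and 2.35 in restricted ventricles (limma, adjusted p = 0.0223 and 0.00668). The isoproterenol call was lost without control ventricle 4 (1.76, limma, adjusted p = 0.0699) and without isoproterenol ventricle 3 (1.80, adjusted p = 0.0556). tRF-Asn-GTT-017 rose by 3.61 in restricted ventricles against control (SE 0.90, limma, adjusted p = 0.00111), from 39 reads in restricted and 4 reads in control ventricles. tRF-Asn-GTT-025 rose by 2.86 in restricted ventricles (limma, adjusted p = 0.0038), from 20 reads against 4 in control. Its isoproterenol value of 2.00 passed by little (limma, adjusted p = 0.0445) and was lost without any 1 of 7 libraries, which were control ventricles 2, 3, 4 and 5, isoproterenol ventricles 2 and 3 and restricted ventricle 5, with values of 1.51 to 2.16. tRF-Asn-GTT-026 was called higher in isoproterenol ventricles (limma, adjusted p = 0.0225) on 20 reads against 2 in control ventricles, a pooled ratio of 18.4 with an exact 95% counting interval of 4.47 to 162.3, and the call was lost without isoproterenol ventricle 1 or 4 (limma, adjusted p = 0.0754 and 0.0586). Also called higher against control were tRF-Asn-GTT-007 in both drug groups, at 1.99 in isoproterenol and 2.60 in restricted ventricles, tRF-Asn-GTT-040 in isoproterenol ventricles, at 1.83, and tRF-Asn-GTT-003 in restricted ventricles, at 1.98 (limma, adjusted p = 0.0363, 0.00553, 0.0487 and 0.00965). Of the 15 fits that left out 1 library, 9 kept the isoproterenol call of tRF-Asn-GTT-007 and 6 that of tRF-Asn-GTT-040. After median-of-ratios scaling, only tRF-Asn-GTT-017 of these scarce rises, in restricted ventricles, still passed.

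The tyrosine pool was larger on CPM in both drug groups than in control, and none of its members passed the test as lower on that scale. Its summed CPM was 7191, 2123, 5674, 4726 and 4830 in restricted ventricles 1 to 5. It was 1763, 3250, 6363, 2078 and 1772 CPM in isoproterenol ventricles and 1234, 695, 1369, 210 and 1106 CPM in control ventricles. Every drug library was above every control library, while the 2 drug groups overlapped. The log2 ratio of mean sums against control was 2.41 in restricted and 1.72 in isoproterenol ventricles on CPM, and 0.95 and 0.55 after median-of-ratios scaling. With the listed reads scaled to a common total it was 1.78 and 0.79, and the isoproterenol value there was 0.21 without isoproterenol ventricle 3. As a share of the listed reads the pool was 0.315% to 1.86% in restricted, 0.24% to 1.29% in isoproterenol and 0.0833% to 0.512% in control ventricles, and here all 3 groups overlapped.

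The ratio of the tyrosine sum to the asparagine sum, in which the library total cancels, was 3.44, 1.91, 1.95, 3.35 and 2.77 in restricted ventricles. It was 0.967, 1.06, 1.64, 1.34 and 1.08 in isoproterenol ventricles and 0.793, 0.341, 0.797, 0.105 and 0.600 in control ventricles. The 3 groups did not overlap: restricted ventricles stood highest and control ventricles lowest. The ratio was not planned, rests on sums over members and is described with no test. Its denominator was led by tRF-Asn-GTT-021 in the drug groups and by tRF-Asn-GTT-043 in control, so it sets tyrosine against different fragments. The same ratio was not taken for other pairs of parents, so how often such groups lie apart is not known.

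Of the tyrosine fragments, tRF-Tyr-GTA-021 and tRF-Tyr-GTA-019 were the most abundant over all libraries. tRF-Tyr-GTA-021 had 2204, 551, 1491, 1495 and 1205 CPM in restricted ventricles 1 to 5. It had 520, 750, 1848, 642 and 606 CPM in isoproterenol ventricles and 234, 134, 408, 47.8 and 296 CPM in control ventricles. Both drug groups lay above control, and they overlapped each other. Against control it rose by a log2 fold change of 2.11 in isoproterenol (SE 0.55, limma, adjusted p = 0.00187) and 2.82 in restricted ventricles (SE 0.55, limma, adjusted p = 7.98e-05).

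tRF-Tyr-GTA-019 had 1990, 571, 1991, 1397 and 1363 CPM in restricted ventricles. It had 475, 555, 1367, 493 and 478 CPM in isoproterenol ventricles and 161, 84.9, 234, 15.1 and 283 CPM in control ventricles. Again both drug groups were wholly above control. Its log2 fold change against control was 2.50 in isoproterenol (SE 0.59, limma, adjusted p = 0.000625) and 3.63 in restricted ventricles (SE 0.59, limma, adjusted p = 4.13e-06), and the restricted value was the largest of the 12 tyrosine fragments. Its share of the tyrosine pool was 26.9% to 35.1% in restricted, 17.1% to 27.0% in isoproterenol and 7.17% to 25.6% in control ventricles.

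tRF-Tyr-GTA-005 had 1257, 440, 829, 782 and 1007 CPM in restricted, 286, 609, 1461, 304 and 330 CPM in isoproterenol and 297, 215, 226, 30.1 and 246 CPM in control ventricles. Restricted ventricles were above control in every library, and isoproterenol ventricle 1 fell inside the control range. The log2 fold change against control was 1.57 in isoproterenol (limma, adjusted p = 0.0225) and 2.33 in restricted ventricles (limma, adjusted p = 0.00103). The first call was lost without single libraries: the log2 fold change was 0.97 without control ventricle 4 (limma, adjusted p = 0.126) and 1.17 without isoproterenol ventricle 3 (limma, adjusted p = 0.103).

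tRF-Tyr-GTA-016 had 488, 116, 531, 235 and 184 CPM in restricted, 126, 422, 566, 164 and 85.5 CPM in isoproterenol and 87.9, 40.1, 55.7, 7.09 and 39.3 CPM in control ventricles. Only isoproterenol ventricle 5 reached into the control range. Against control it rose by 2.53 in isoproterenol and 2.85 in restricted ventricles on the log2 scale (limma, adjusted p = 0.00109 and 0.000319). tRF-Tyr-GTA-020 averaged 428 ± 150 CPM in restricted, 320 ± 203 CPM in isoproterenol and 135 ± 72.2 CPM in control ventricles (SD, n = 5 each). It rose in restricted ventricles by 1.80 (limma, adjusted p = 0.00678), and the isoproterenol value of 1.19 did not pass (limma, adjusted p = 0.0779). tRF-Tyr-GTA-003 rose in restricted ventricles by 2.57 (limma, adjusted p = 0.00165), with 42.8 to 116.0 CPM against 2.66 to 26.2 CPM in control ventricles, and its isoproterenol value of 1.55 did not pass (limma, adjusted p = 0.0525). The other 6 tyrosine fragments include tRF-Tyr-GTA-002 and tRF-Tyr-GTA-004, which passed for restricted ventricles, at 1.59 and 2.04, and not for isoproterenol ventricles, at 0.92 and 1.30 (limma, adjusted p = 0.0188 and 0.0133, then 0.181 and 0.122). Of the 15 fits that left out 1 library, 14 kept the restricted call of tRF-Tyr-GTA-002 and 13 that of tRF-Tyr-GTA-004. A call in one comparison and none in the other does not show that the groups differ.

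After median-of-ratios scaling, tRF-Tyr-GTA-016, tRF-Tyr-GTA-019 and tRF-Tyr-GTA-021 still rose against control, by 1.32, 1.27 and 0.87 in isoproterenol and by 1.27, 2.02 and 1.20 in restricted ventricles. tRF-Tyr-GTA-005 had 0.33 and 0.72 there and passed in neither. tRF-Tyr-GTA-014, with 0 to 6.10 CPM in restricted and 2.36 to 14.8 CPM in control ventricles, was then called lower in restricted ventricles, at -2.62 (limma, adjusted p = 0.0151). With the listed reads scaled to a common total instead, no tyrosine fragment passed in isoproterenol ventricles, where 14.0% of all tsRNAs rose and 16.9% fell.

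Within groups, the deepest or the shallowest library was often the extreme one for tyrosine fragments. These libraries were also the extremes for the typical tsRNA among those read in every library. Control ventricle 4, the deepest library, was the lowest control for 9 of the 12 tyrosine fragments, and isoproterenol ventricle 3, the shallowest, was the highest of its group for 10. In restricted ventricles the shallowest library, number 1, was the highest for 7 and the deepest, number 2, the lowest for 9. The other ends followed depth less. The shallowest control, number 3, was the highest for 4 and control ventricle 1 for 6. Isoproterenol ventricle 5, the deepest, and ventricle 1 were each the lowest for 5. For the asparagine sum, the deepest library was the lowest only in restricted ventricles, and the shallowest was the highest only in isoproterenol ventricles. The median-of-ratios factor, the level of the typical tsRNA in a library, was 1.04 in restricted ventricle 2 and 2.35 in restricted ventricle 1, the lowest and highest of that group. It was 2.40 in isoproterenol ventricle 3, the highest of its group, and 0.174 in control ventricle 4, the lowest of its group. With the log2 library total as a covariate, 3 of 12 tyrosine fragments rose for isoproterenol against control, where 23.2% of all tsRNAs rose, and 6 of 12 for restricted against control, where 36.9% did. What part depth has in these levels was not tested further.

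Over all 33 fragments, 11 rose and 3 fell in isoproterenol ventricles against control by the limma test at an adjusted p under 0.05, where 35.5% of all tsRNAs rose and 12.4% fell. Among asparagine fragments 7 rose and 3 fell, and among tyrosine fragments 4 rose and none fell. The share called is near that of the whole table. Of the 33, 5 lay wholly above and 2 wholly below control, against 19.0% and 8.49% of all tsRNAs. The median log2 fold change was 1.19 for asparagine and 1.30 for tyrosine fragments, beside 1.26 for all tsRNAs tested. After median-of-ratios scaling these medians were 0.01, 0.17 and 0.15. There 5 members rose and 7 fell, where 16.1% of all tsRNAs rose and 19.6% fell. With the listed reads scaled to a common total 2 members rose and 6 fell, against 14.0% and 16.9% of all tsRNAs.

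For restricted against control, which uses the same control libraries, 15 of the 33 rose and 2 fell, where 47.7% of all tsRNAs rose and 10.7% fell. Among asparagine fragments 7 rose and 2 fell, and among tyrosine fragments 8 rose and none fell. Of the 33, 11 lay wholly above and 4 wholly below control, against 31.1% and 9.19% of all tsRNAs. These shares, too, were close to those of the whole table. The median log2 fold change was 0.91 for asparagine and 1.92 for tyrosine fragments, beside 1.60 for all tsRNAs tested. After median-of-ratios scaling these medians were -0.63, 0.38 and 0.24, so that of the asparagine fragments changed sign. There 6 members rose and 9 fell, where 15.1% of all tsRNAs rose and 20.6% fell. With the listed reads scaled to a common total 10 members rose and 6 fell, against 26.4% and 14.3% of all tsRNAs.

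Restricted and isoproterenol ventricles were compared to ask whether prior restriction moved these fragments in hearts given the drug. None of the 33 passed the limma test, where 0% of all tsRNAs rose and 0% fell. At an unadjusted p under 0.05 there were 1 higher and 1 lower member, against 16.4% of all tsRNAs in either direction. No member's groups lay apart in either direction, against 0.990% and 0.707% of all tsRNAs. edgeR, whose filter dropped part of the members, called none. DESeq2 called 1, tRF-Asn-GTT-022, lower in restricted ventricles by 1.47 on the log2 scale (DESeq2, adjusted p = 0.0435). How many of all tsRNAs either tool called was not taken, so these counts have no share of the table beside them. The intervals were wide. For tRF-Asn-GTT-043 the log2 difference was 1.08 (95% interval -0.06 to 2.21, limma, adjusted p = 0.341), and for tRF-Asn-GTT-021 it was -0.60 (-1.77 to 0.58, adjusted p = 0.563). For tRF-Tyr-GTA-019 it was 1.13 (-0.06 to 2.33, limma, adjusted p = 0.341) and for tRF-Tyr-GTA-021 0.71 (-0.41 to 1.82, adjusted p = 0.494). The 2 members with the smallest p were scarce: tRF-Asn-GTT-041 had 3 reads in restricted and 26 in isoproterenol ventricles, a pooled ratio of 0.121 with an exact 95% counting interval of 0.0235 to 0.395 (limma, adjusted p = 0.261). tRF-Asn-GTT-010 had 7 reads in restricted and 0 in isoproterenol ventricles (limma, adjusted p = 0.3). Among tyrosine fragments, tRF-Tyr-GTA-013 had a difference of 1.38 and tRF-Tyr-GTA-003 one of 1.02, and neither passed (limma, adjusted p = 0.389 and 0.418). The median log2 difference was 0.03 for asparagine and 0.69 for tyrosine fragments, beside 0.44 for all tsRNAs tested. After median-of-ratios scaling these medians were -0.22, 0.31 and 0.09, with 15 of 21 asparagine fragments below 0, and no tsRNA of the table passed. With the log2 library total as a covariate none of the 33 passed, where 5.23% of all tsRNAs rose and 0.849% fell.

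The other parents with queuosine were histidine, with 26 tRFs, and aspartate, with 24. Of the histidine tRFs, 20 rose and 3 fell in isoproterenol ventricles against control, with a median log2 fold change of 2.82, and 20 rose and 3 fell in restricted ventricles, with a median of 2.69. Of the aspartate tRFs, 7 rose and 4 fell in isoproterenol ventricles (median 0.89), and 9 rose and 3 fell in restricted ventricles (median 1.13). Of all tsRNAs tested, 35.5% rose and 12.4% fell in isoproterenol ventricles (median 1.26). In restricted ventricles 47.7% rose and 10.7% fell (median 1.60). After median-of-ratios scaling 17 histidine tRFs rose and 3 fell in isoproterenol ventricles (median 2.14), and 14 rose and 4 fell in restricted ventricles (median 1.52). Of the aspartate tRFs, 5 rose and 6 fell there in isoproterenol ventricles (median 0.02). In restricted ventricles 5 rose and 6 fell (median 0.17). The balance of directions turned, as it did for all tsRNAs. Of all tsRNAs, 16.1% then rose and 19.6% fell in isoproterenol ventricles (median 0.15). In restricted ventricles 15.1% rose and 20.6% fell (median 0.24). The difference between parents was not tested. Asparagine and tyrosine also had 1 tiRNA each. tiRNA-Asn-GTT-001 averaged 26.2 ± 16.2 CPM in restricted, 11.3 ± 9.69 CPM in isoproterenol and 17.4 ± 9.97 CPM in control ventricles (SD, n = 5 each), and tiRNA-Tyr-GTA-003 averaged 54.5 ± 38.4 CPM in restricted, 19.4 ± 25.2 CPM in isoproterenol and 27.6 ± 15.9 CPM in control ventricles (SD, n = 5 each). Neither passed in any comparison on CPM, with log2 fold changes for isoproterenol against control of -0.70 and -1.86 (limma, adjusted p = 0.419 and 0.0829). After median-of-ratios scaling both passed as lower in isoproterenol ventricles, with log2 fold changes of -1.88 and -3.11, where 19.6% of all tsRNAs fell. Both calls rested on few reads, 11 and 12 in isoproterenol against 35 and 48 in control ventricles. tiRNA-Tyr-GTA-003 had a read in only 3 of the 5 isoproterenol libraries.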

How the data were processed

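Small RNA libraries were read from products of 134 to 160 bp, per the labels' protocols. The authors deposited 1 table of CPM, with a column for each rat. Cutadapt and edgeR were named without versions, per the submitters' processing notes, and the sources used here name no aligner, tRNA reference or build. All CPM values (100%) were whole multiples of 1 read within 0.001 reads, which gave the library totals. The sources do not say whether reads were collapsed or sampled before counting. Tested were tsRNAs that reached 1 CPM in 5 or more libraries (707 of 714, all 33 members) with limma 3.58.1 in R 4.3.3 on log2(CPM + 1), in 1 fit of 15 libraries in 3 groups, two-sided, with Benjamini-Hochberg adjustment over all tested and a threshold of 0.05. Fold changes are differences of group means of log2(CPM + 1). The added 1 shrinks those of low members, but libraries at 0 CPM can enlarge them. For tRF-Asn-GTT-044 the value was -2.39 for isoproterenol against control, where mean CPM was 11.9 and 25.7. It had 0 CPM in isoproterenol ventricles 1 and 3. edgeR 4.0.16 and DESeq2 1.42.0 on the recovered reads were alternatives, and all 3 tools were run on simulated data. Those data had the same spread for every tsRNA and random changes in both directions in 1 group. They therefore do not show how the tools do where most tsRNAs shift in the same direction. Named were the 5 most abundant members per parent, up to 4 that rose and 4 that fell per comparison and parent, the 3 with the smallest p where none passed, and those with 0 reads in a group and at least 10 in another; other members were named after their values were seen. Members and lists were chosen with earlier results of these data known. Counts differed beyond sampling noise between all libraries of a group (chi-square over its degrees of freedom 7.52 or more). Nothing says how the RNA of different rats was handled, and p-values measure only the spread between these libraries.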

Additional observations from a re-analysis of the deposited data

Results flagged for a closer look

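There were 69 sets of 5 libraries (21 members and the 2 parent sums in 3 groups). In each, the highest or lowest library was set against the nearest of the others, and 6 stood far from the rest. The gap was taken on log2(CPM + 1), where a 0 stands farther from a few reads than it does on CPM. The sets of tRF-Asn-GTT-022 in control and tRF-Asn-GTT-010 in isoproterenol ventricles were all 0 and could not be flagged. Chance marks about 1 in 20 such sets. tRF-Tyr-GTA-021 and tRF-Tyr-GTA-019 were highest in isoproterenol ventricle 3, the library with the fewest reads, at 1850 and 1370 CPM, against 750 and 555 CPM in the next library of that group. tRF-Tyr-GTA-005 was lowest in control ventricle 4, the library with the most reads, at 30.1 CPM, against 215 CPM in the next. The other 3 were scarce members listed at 0 CPM in 1 library: tRF-Asn-GTT-020 in isoproterenol ventricle 4 (next 7.77 CPM), tRF-Asn-GTT-045 in restricted ventricle 3 (next 8.99 CPM) and tRF-Tyr-GTA-013 in isoproterenol ventricle 5 (next 7.42 CPM).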

How the results depend on the processing

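For isoproterenol against control, 14 members were called, and the count was 8 with the listed reads scaled to a common total, 8 with the log2 library total as a covariate, 8 with edgeR on the authors' totals and 7 with edgeR and TMM, both of which tested only 13 members. It was 6 without the deepest control and the shallowest isoproterenol library together, an alternative chosen after seeing the data. Leaving out each library in turn gave 8 to 16, with 8 without control ventricle 4 and 8 without isoproterenol ventricle 3. For restricted against control, 17 were called, and edgeR gave 10 on the authors' totals and 8 with TMM. Leaving out each library gave 15 to 20. Only 10 of the 17 were tested by edgeR, which kept all 10 on the authors' totals and 6 with TMM. Of the 14 called for isoproterenol against control it tested 7, and kept 7 and 5. Median-of-ratios scaling kept 8 of these 14 calls, and 8 of the 17 for restricted against control. With the listed reads scaled to a common total, 5 and 12 were kept. With the covariate 23.2% of all tsRNAs rose and 14.3% fell for isoproterenol against control. Shares of all tsRNAs called were not taken for edgeR, DESeq2 or the fits with libraries left out. For restricted against isoproterenol DESeq2 called 1, and leaving out each library gave 0 to 0. No called member was called in the opposite direction in the 13 alternatives beside those that left out 1 library. For isoproterenol against control the log2 ratio of mean asparagine sums, 0.39 on CPM, was -1.29 with median-of-ratios scaling and -0.63 with the listed total; for restricted against control, 0.02 on CPM, it was -1.99 and -0.71. The sums with 1 library left out were also chosen after seeing the data. The cause of these shifts was not tested.

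No pairing of libraries by replicate number was seen: same-numbered libraries correlated from -0.12 to 0.25 in their deviations from the group means. With 5 libraries a group, this does not settle whether same-numbered libraries were handled together. With the replicate block, 14, 18 and 0 members were called for isoproterenol against control, restricted against control and restricted against isoproterenol. The share of all tsRNAs called with that block was not taken, so these counts cannot be set against the whole table.

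Depth limits the scarce members. A read was found in every library for 9 of 21 asparagine and 10 of 12 tyrosine members, and a level of 1 read, up to 9.43 CPM, cannot be compared across libraries.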
